A study of Mus musculus with 12 samples.

Results

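Of 4610 genomic regions that the array measured by position alone, 41 had no probe above the detection flag in J1 mouse embryonic stem cells given solvent and at least 1 probe above it in every sample given retinoic acid (RA). A region was every probe that carried the same mm9 interval and strand as its name. The flag was the scanner software's call that a spot is well above background. A region was kept if none of its probes had the flag on any of the 3 DMSO arrays and 1 or more probes had it on all 3 RA arrays. These 41 were 0.889% of all regions and 5.01% of the 819 regions with no flag on any DMSO array. Of the other regions in that group, 639 had no flag on any RA array either and 139 had some RA flags without 1 probe holding all 3.

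J1 cells, a line of pluripotent mouse embryonic stem cells, were grown on gelatin with serum replacement and leukaemia inhibitory factor (LIF) at 1000 U/mL, the cytokine that keeps mouse stem cells undifferentiated. All samples used here had LIF in the medium, and they received RA at 1 µM or its solvent DMSO for 24 h, with 3 samples in each group, each hybridised to a 1-colour Agilent array. The 6 further samples of the series, given vitamin C or water, were on an array design with 0 probes named by region and were not used. Whether a group's samples were grown as separate cultures is not in the labels, so the spread between them, and the p-values that rest on it, may be technical.

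Slide 1 held the 3 DMSO arrays and slide 2 the 3 RA arrays, so slide and treatment cannot be told apart. Between 60.9% and 65.7% of the 55681 non-control probes had the flag on an array. The 75th percentile of the log2 signal, which was subtracted from each array, was 9.25 to 9.26 on the DMSO arrays and 8.17 to 8.60 on the RA arrays. A scaled log2 level is therefore a probe's signal relative to that percentile of its own array.

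Mammalian genomes are transcribed well beyond protein-coding genes, and long noncoding RNAs from such intervals are often low in abundance and limited to particular cell types. RA enters the nucleus and binds retinoic acid receptors, which sit on DNA with retinoid X receptors and switch from repressing to activating nearby genes. In embryonic stem cells it starts differentiation, induces Hox genes along their clusters and induces the enzymes that degrade RA itself. The array names for these regions give a position and a strand and no transcript, so whether their RNA is noncoding was not tested.

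The word silent holds for these regions only at the stricter of the 2 detection flags in the files. The looser flag marks a spot that is positive and significantly above background. By that flag, 36 of the 41 regions had a signal in at least 1 probe on at least 1 DMSO array, and 5 had none. The leading probe, the tested probe with the highest mean signal over the 6 arrays, had the looser flag on all 3 DMSO arrays in 24 regions, on 1 or 2 in 10 and on none in 7. Applying the whole rule with the looser flag gave 13 regions. The 41 are therefore regions below the strict flag in DMSO rather than regions without signal.

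By the mirrored rule, 87 regions, 1.89%, had a probe with the flag on all 3 DMSO arrays and no flag on any RA array. The RA arrays had the flag on fewer probes, 60.9% to 64.6%, than the DMSO arrays, 65.1% to 65.7%, and the fit below called more regions higher than lower in RA. A total of 3064 regions had a probe with the flag on all 6 arrays.

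The 41 regions lay on 17 of the 20 chromosomes that the array's regions cover. Chromosome 3 held 6 of its 265 regions, chromosome 16 held 4 of 156, and chromosomes 5, 6, 9 and X held 3 each. Chromosomes 2, 10 and 14 held none. By strand letter, 23 were F and 18 were R, or 56.1% F against 50.3% over all regions. Their median length was 5962 bp, with a range of 159 to 107096 bp, against a median of 10676 bp over all regions and 6176 bp over the 819 regions without a flag in DMSO. The regions were shorter than the array's regions as a whole and close in length to those that had no DMSO flag.

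Most of the regions stood alone. Joining regions within 50 kb of each other gave 38 loci, of which 3 held 2 members and none held more. The 3 pairs were on chromosome X, where an interval of 3438 bp separated them, on chromosome 16, where they overlapped by 8840 bp, and on chromosome 3, where one lay inside the other. In each pair both regions were on the F strand.

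In DMSO the leading probes had processed intensities, the scanner's background-subtracted signal in arbitrary units, of 1.82 to 11.3. Where a probe lacked even the looser flag, as at chr16:77670599-77691642 with 2.26, 2.18 and 2.21, the values are not read as measured levels. In RA they had intensities of 8.45 to 473. In all 41 regions the lowest RA intensity was above the highest DMSO intensity, which follows largely from the choice of regions. On the scaled log2 values every RA array was above every DMSO array in 54.9% of 3605 tested regions of any kind. Because the regions were chosen by these signals, their differences are given as a description with no test. The fit over all probes called 36.1% of 37076 tested probes higher in RA and 35.5% lower, and among 3612 tested regions 52.4% were higher and 18.7% lower, with a limma adjusted p under 0.05.

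Since the DMSO side had no flagged signal, each RA over DMSO ratio is given as a lower bound. It sets the mean scaled log2 level of the 3 RA arrays against the mean, over the DMSO arrays, of the probe's own signal or the lowest signal of any flagged probe, whichever was higher. The bound ranged from at least 2.20-fold to at least 53.0-fold, with a median of at least 3.65-fold. It was at least 4-fold in 17 regions and at least 8-fold in 12. The bound includes the difference between the arrays' percentiles. Without any scaling the median bound was 2.04-fold and 21 of the 41 regions reached 2-fold.

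Many of the regions were close to the detection limit in RA. In 25 of the 41 the leading probe was under 2 times the array's lowest flagged signal on at least 1 RA array. Each probe has its own response, so the order from bright to dim used here is an order of signal and not of RNA amount.

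**Figure D1:**
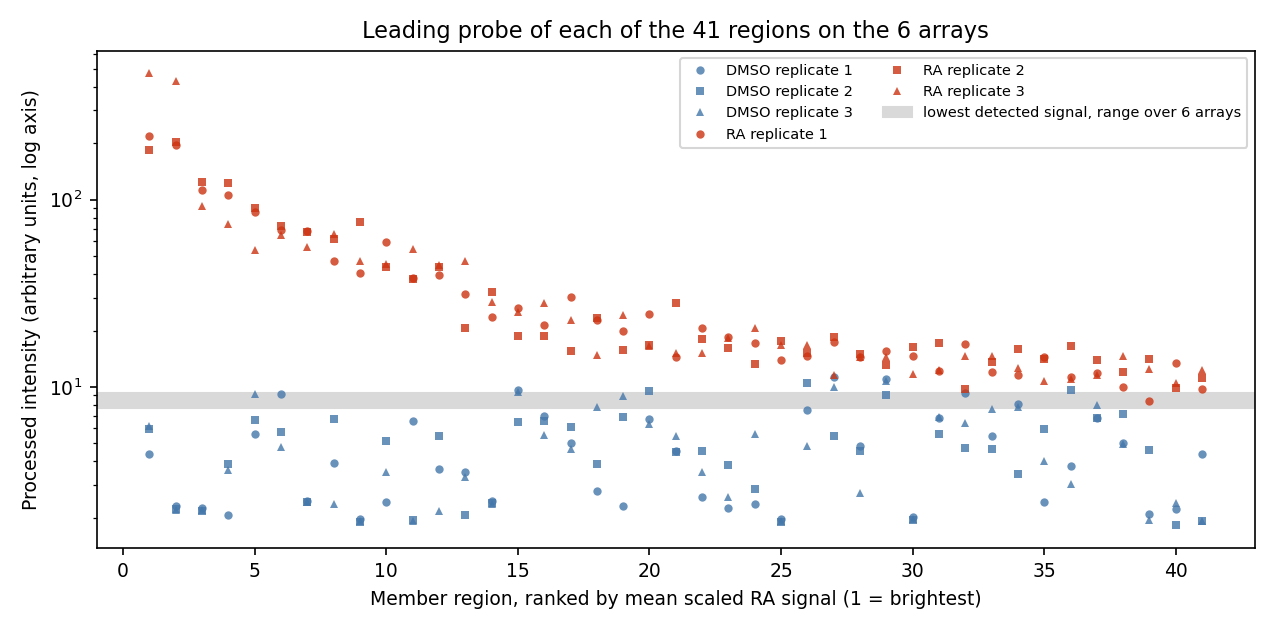
Processed intensity (log axis) of the leading probe of each of the 41 regions on the 3 DMSO arrays (blue) and the 3 RA arrays (red), ranked by mean scaled RA level, with the range of the arrays' lowest flagged signal in grey. The 2 brightest regions reach 473 and 433 on RA replicate 3, and the dimmest region has 9.78, 11.2 and 12.4 in RA, just above the grey band of 7.70 to 9.31.

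The 2 brightest regions were the chromosome X pair. At chrX:123303474-123305531 (F strand, 2058 bp) the leading probe had intensities of 4.36, 5.96 and 6.17 in DMSO and 218, 184 and 473 in RA. The scaled RA level was -0.35 ± 0.95 log2 (SD, n = 3), and the bound was at least 53.0-fold. RA replicate 3 was the highest of the 3 by more than the other RA arrays differed from each other. All 3 probes of this region had the flag on all RA arrays, and another of them had intensities of 219, 203 and 457 there.

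The other member of the pair, chrX:123295327-123300036 (F strand, 4710 bp), had intensities of 2.30, 2.22 and 2.20 in DMSO and 197, 203 and 433 in RA, a bound of at least 51.4-fold. Again RA replicate 3 was the highest. No probe of it had even the looser flag on a DMSO array. Of its 3 probes, 2 had the strict flag on all RA arrays, and the third probe had it on 1. Without RA replicate 3 the largest bound over the 41 regions was 36.6-fold.

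The chromosome X pair had a further array region beside it that was no member. At chrX:123306246-123307974 (F strand), 715 bp past the brighter member, intensities were 25.6, 23.8 and 25.8 in DMSO and 825, 876 and 1651 in RA. It had the flag on all 6 arrays, and RA was 6.25 log2 above DMSO (SE 0.37, limma adjusted p = 2.85e-05). Over this and the 6 other scalings the difference ran from 4.45 to 6.25. In all 3 of these regions on the F strand the RA replicate 3 value was the highest.

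The brighter region of the chromosome 16 pair, chr16:77670599-77691642 (F strand, 21044 bp), had intensities of 2.26, 2.18 and 2.21 in DMSO and 113, 124 and 92.5 in RA. Its bound was at least 21.7-fold, and both of its probes had the flag on all RA arrays. The overlapping region chr16:77682803-77708453 (F strand), measured by 1 probe, had 2.58, 4.52 and 3.51 in DMSO and 20.6, 18.0 and 15.3 in RA, at least 3.54-fold. The same interval was on the array for the R strand, and it had the flag on none of the 6 arrays. Where both strands were measured here, the flag in RA was on the F strand.

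At chr15:102926581-102932542 (R strand, 5962 bp) the leading probe had intensities of 2.08, 3.89 and 3.61 in DMSO and 106, 123 and 73.8 in RA, a bound of at least 19.7-fold. All 3 probes had the flag on all RA arrays, the dimmest with 16.1, 20.1 and 11.3. A longer array region on the same strand, chr15:102920547-102933472, contains it and was already detected in DMSO. That region had 41.5, 39.1 and 52.0 in DMSO and 125, 146 and 96.7 in RA, or 2.30 log2 higher (SE 0.13, limma adjusted p = 2.18e-05). On the F strand of the longer interval the difference was 0.86 log2 (SE 0.33, limma adjusted p = 0.0567) and was not called.

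The region with the most detected probes was chr6:99472981-99484210 (R strand, 11230 bp), where 4 of 6 probes had the flag on all RA arrays. Its leading probe had intensities of 5.59, 6.66 and 9.15 in DMSO and 86.4, 90.7 and 54.2 in RA, at least 14.8-fold. The same interval on the F strand was detected on all 6 arrays, with 28.8, 30.7 and 28.4 in DMSO and 41.5, 29.7 and 34.1 in RA. That was 1.09 log2 higher in RA after scaling (SE 0.18, limma adjusted p = 0.00234), while the intensities of the 2 groups overlapped.

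Agreement between probes was weaker at other bright regions. At chr7:128400874-128439363 (F strand, 38490 bp) 1 of 3 probes had the flag in RA. It had 9.11, 5.72 and 4.75 in DMSO and 68.8, 72.5 and 64.8 in RA, at least 13.7-fold. The other 2 probes had the flag on none of the 6 arrays. Below the flag, 1 of them was dimmer in RA, with 6.80, 7.02 and 5.28 in DMSO and 1.81, 3.86 and 2.16 in RA. The other had 2.22, 2.14 and 2.19 in DMSO and 1.89, 2.20 and 2.11 in RA. Neither probe showed the rise of the leading probe.

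At chr13:38731361-38735655 (F strand, 4295 bp) 1 of 3 probes had the flag in RA as well. Its intensities were 3.93, 6.76 and 2.37 in DMSO and 46.9, 62.0 and 65.8 in RA, at least 11.5-fold. The other 2 probes had the flag on none of the 6 arrays, with intensities of 1.85 to 2.55, and give no direction. For these 2 regions the RA signal rests on a single probe sequence.

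At chr17:12965849-12968519 (F strand, 2671 bp) all 3 probes had the flag in RA. The leading probe had 2.46, 2.42 and 2.42 in DMSO and 67.8, 67.1 and 56.1 in RA, at least 12.6-fold. The 2 array regions closest to it were also higher in RA. A region named without a strand, chr17:12941161-12944859, had 50.3, 49.0 and 47.6 in DMSO and 539, 561 and 591 in RA, or 4.37 log2 higher (SE 0.14, limma adjusted p = 3.15e-06). The region chr17:12990484-13018375 on the F strand had 13.4, 8.20 and 14.9 in DMSO and 145, 120 and 130 in RA, or 4.32 log2 higher (SE 0.26, limma adjusted p = 3.25e-05). The R strand of that last interval differed by -0.19 log2 (SE 0.10, limma adjusted p = 0.119) and was not called.

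The chromosome 5 region chr5:14921737-14978834 (F strand, 57098 bp) had 2.43, 5.14 and 3.49 in DMSO and 59.8, 43.9 and 45.6 in RA, at least 9.80-fold, and all 3 of its probes had the flag in RA. All 6 other array regions on the F strand within 100 kb of it were called higher in RA. The one with the largest difference, chr5:15033568-15033987, had 33.2, 26.1 and 27.4 in DMSO and 979, 953 and 880 in RA, or 5.87 log2 higher (SE 0.13, limma adjusted p = 8.77e-07). The smallest difference of the 6 was 1.98 log2 at chr5:14988715-14989311. Unlike the member, each of these 6 neighbours had the flag on at least 1 DMSO array.

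The next member along chromosome 5, chr5:15176325-15223375, was on the R strand. Its leading probe had 2.25, 3.81 and 2.58 in DMSO and 18.5, 16.2 and 18.2 in RA, at least 3.51-fold. The F-strand region inside it, chr5:15184252-15184923, had 17.8, 17.4 and 18.6 in DMSO and 172, 120 and 194 in RA, or 3.99 log2 higher (SE 0.27, limma adjusted p = 5.27e-05). The F strand of the member's whole interval went the other way, with 707, 704 and 704 in DMSO and 362, 342 and 230 in RA, or -0.36 log2 (SE 0.11, limma adjusted p = 0.0211). This region, the dimmer regions of the chromosome 3 and 16 pairs and the neighbours named here were chosen after their values were seen.

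Of the other 3 of the 12 brightest regions, chr6:40699474-40719122 alone had a tested neighbour outside the 41. Its neighbours, the F and R strands of chr6:40693617-40720167, contain it and differed by 0.74 and 0.66 log2 after scaling. Both strands had the flag on all 3 DMSO arrays, and the intensities of the 2 groups overlapped. On the F strand they were 20.3, 23.0 and 20.7 in DMSO and 17.6, 25.2 and 17.6 in RA. On the R strand they were 14.3, 18.1 and 11.1 in DMSO and 10.2, 17.8 and 10.9 in RA. At chr6:40699474-40719122 (F strand) both probes had the flag in RA, and the leading one had 1.97, 1.89 and 1.93 in DMSO and 40.4, 76.4 and 46.8 in RA, at least 10.4-fold. At chr9:122481619-122588714 (F strand), the longest of the 41 regions at 107096 bp, all 3 probes had it, and the leading one had 6.58, 1.94 and 1.93 in DMSO and 38.2, 37.6 and 54.4 in RA, at least 8.51-fold. No other array region lay within 100 kb of it.

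At chr3:137736327-137752677 (F strand) 2 of 5 probes had the flag in RA, and the leading one had 3.64, 5.46 and 2.18 in DMSO and 39.8, 43.5 and 44.7 in RA, at least 8.48-fold. The region inside it, chr3:137742666-137744470 on the same strand, had 2.46, 2.38 and 2.36 in DMSO and 23.6, 32.2 and 28.3 in RA, at least 5.53-fold, on both of its probes. The R strand of the longer interval had no probe with the flag on any DMSO array and had it on 1 RA array. A further F-strand region, chr3:137734560-137740335, overlaps the longer member by 4009 bp and had the flag on none of the 6 arrays.

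The 41 regions were measured by 124 probes, of which 66 had the flag on all 3 RA arrays, 15 on 1 or 2 and 43 on none. A single probe measured 4 of the regions. Among the 37 regions with 2 or more probes, 16 had 2 or more with the flag on all RA arrays and 21 had exactly 1. In 13 of those 21 every other probe had the flag on no RA array. Such probes did not all follow the leading probe. At chr17:47022781-47023428 (F strand) the other probe was dimmer in RA, with 6.94, 8.95 and 9.93 in DMSO and 5.42, 3.05 and 4.74 in RA. At chr11:18753941-18760118 (R strand) 1 of the others was brighter in RA, with 2.27, 2.15 and 2.08 against 6.39, 3.90 and 6.14. The directions of unflagged probes were not counted. All probes agreed in 10 of the 37, and 6 of these 10 had at least 3 probes.

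Those 6 were the regions on chromosomes 15, 17, 5 and 9 above, the brighter chromosome X region and chrX:18734106-18744367 (R strand). The last had intensities of 6.99, 6.58 and 5.56 in DMSO and 21.5, 18.7 and 28.1 in RA, at least 4.46-fold. At the other end, chr3:45163252-45179177 (F strand) had 8 probes, the most of the 41 regions, and 1 of them had the flag on all RA arrays, with 11.6, 16.0 and 12.6 against 8.06, 3.44 and 7.78 in DMSO. No spot of these 124 probes was marked as an outlier by the scanner software.

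**Figure D2:**
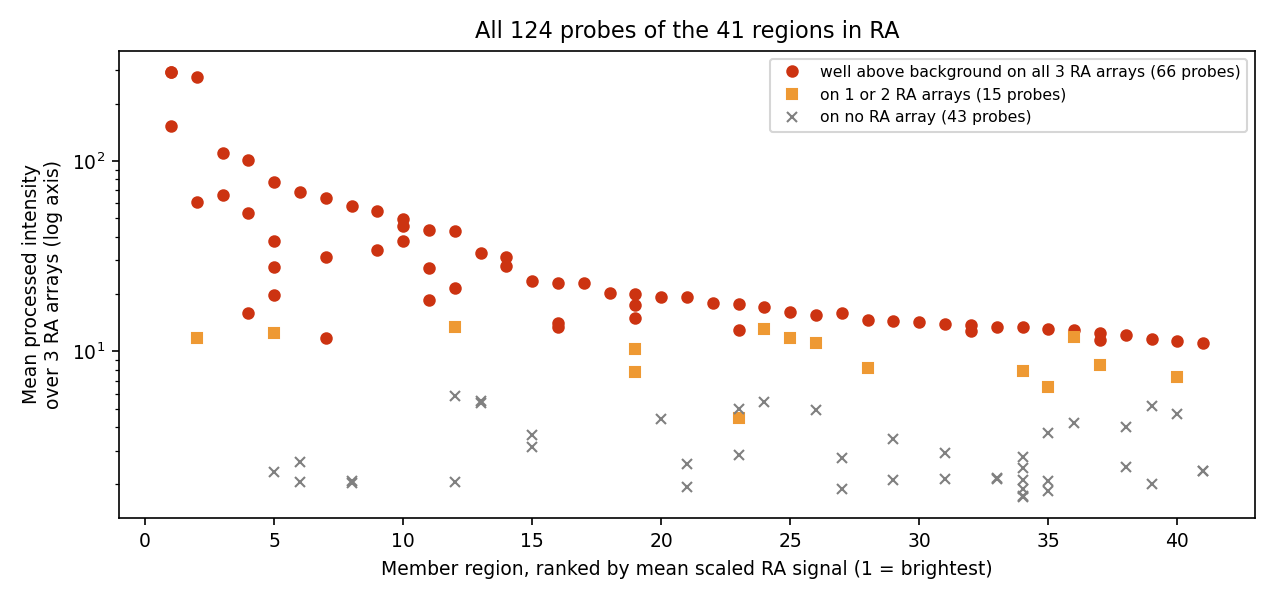
Mean processed intensity over the 3 RA arrays (log axis) of each of the 124 probes, placed at the rank of its region and marked by the number of RA arrays on which it had the flag. Among the brightest regions several probes carry signal, as in the brightest, whose 3 probes all had the flag, while many of the dimmer regions have 1 flagged probe above probes near 2 units.

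The 29 regions beyond the 12 brightest had bounds of at least 2.20- to at least 6.22-fold. The 3 dimmest were chr4:119818783-119819279 (R strand), chr4:89088538-89130181 (F strand) and chr3:152810906-152815072 (R strand). The leading probe of the last had 4.36, 1.93 and 1.92 in DMSO and 9.78, 11.2 and 12.4 in RA. Its bound of at least 2.20-fold was the smallest of the 41. The other 2 probes of that region, without the flag on any array, were dimmer in RA. They had 3.78, 7.55 and 5.20 in DMSO against 1.71, 3.19 and 2.14 in RA, and 5.36, 6.39 and 3.22 against 2.14, 2.67 and 2.29. The rise there rests on a single probe. The leading probes of the dimmest regions had RA intensities close to the lowest flagged signal on those arrays, 7.70 to 8.79.

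The smallest ratio of mean intensities before scaling was 1.40, at chr19:33049479-33054553 (R strand). Its leading probe had 11.1, 9.10 and 10.8 in DMSO and 15.6, 13.1 and 14.5 in RA, and after scaling the ratio was 2.50-fold. Here the probe's own DMSO signal was above the lowest flagged signal on all 3 DMSO arrays, so this value is the measured difference and not a bound. In 8 of the 41 regions the leading probe's own DMSO signal was above the lowest flagged signal of some DMSO array.

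With the flag on all RA arrays and on exactly 1 DMSO array there were 30 regions. The brightest was chr5:14943275-14944205 (F strand), with 13.6, 9.83 and 9.66 in DMSO and 174, 195 and 161 in RA, and it overlaps the chromosome 5 member above. The next were chr3:51804655-51805883 (R strand), with 94.9, 43.1 and 202 in RA, and chr1:139822286-139822985 (F strand), with 87.7, 60.5 and 111 in RA. All 3 were flagged on 1 DMSO array at an intensity between 11.3 and 16.4.

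With no flag in DMSO and the flag on 2 of 3 RA arrays there were 34 regions. The brightest was chr3:30077338-30080281 (R strand), with 14.1, 7.81 and 31.2 in RA, where RA replicate 2 lacked the flag. The next 2 were chrX:102568332-102587093 (R strand), with 16.8, 15.5 and 10.9, and chr5:44625083-44634763 (F strand), where RA replicate 2 lacked the flag as well.

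Gene neighbours were not assigned, because the region names are on mm9 and no annotation of that build was used here. The surroundings are therefore described through the array's other regions. Within 100 kb, 36 of the 41 regions had another region on the array and 5 had none. There were 115 different neighbours that were not members, and 89 of them were tested. Of these, 60 were higher in RA, 4 were lower and 25 were not called, against 52.4% higher and 18.7% lower over all tested regions. The median difference of the neighbours was 0.67 log2, against 0.47 over all tested regions and 0.03 over all tested probes. With spike-in scaling, 31 of the 89 were higher and 15 lower, against 24.5% and 28.3% over all regions. With no scaling 23 were higher and 31 lower, against 13.9% and 45.5% over all regions. Of the 60 called higher, 23 were called higher under all 6 other scalings and 24 fell below 0 under at least 1 of them.

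Many members overlapped another array region that had the flag on a DMSO array. An overlap could be as short as 1 bp, as at chrX:18734106-18744367, or cover the whole member. Members wholly inside a same-strand region with the flag in DMSO included chr6:40699474-40719122, chr4:89088538-89130181, chr15:102926581-102932542 and chr17:47022781-47023428. Where the probes of the overlapping regions lie was not used, so these counts do not place RNA in DMSO inside the members. Of the 41, 13 overlapped a region on the same strand that had the flag on a DMSO array, 20 overlapped one on the other strand, and 19 overlapped none on either strand. Leaving out the 13 gave 28 regions. The same interval was on the array for the other strand in 12 cases, and in 9 of these the other strand had the flag on a DMSO array. Of 8 that were tested, 5 were higher in RA and 1 was lower, against 52.4% and 18.7% over all tested regions.

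Over all tested regions 52.4% were higher in RA and 18.7% lower, with a median difference of 0.47 log2. Among the tested neighbours that overlapped a member, 11 of 16 on the same strand were higher in RA and 0 were lower, with a median difference of 0.98 log2. On the other strand 15 of 22 were higher and 1 was lower, with a median of 0.41 log2. With spike-in scaling these became 8 higher and 2 lower of 16, and 4 higher and 4 lower of 22. Over all tested regions that scaling gave 24.5% higher and 28.3% lower. The difference between same-strand and other-strand neighbours was not tested. Clear differences under every scaling included chr17:47006033-47023558 (F strand), which contains a member on chromosome 17 and was 2.48 log2 higher (SE 0.23, limma adjusted p = 0.000167). They also included chr3:35236023-35241498 on the F strand, 2.06 log2 higher (SE 0.08, limma adjusted p = 5.10e-06), whose own R strand was a member.

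**Figure D3:**
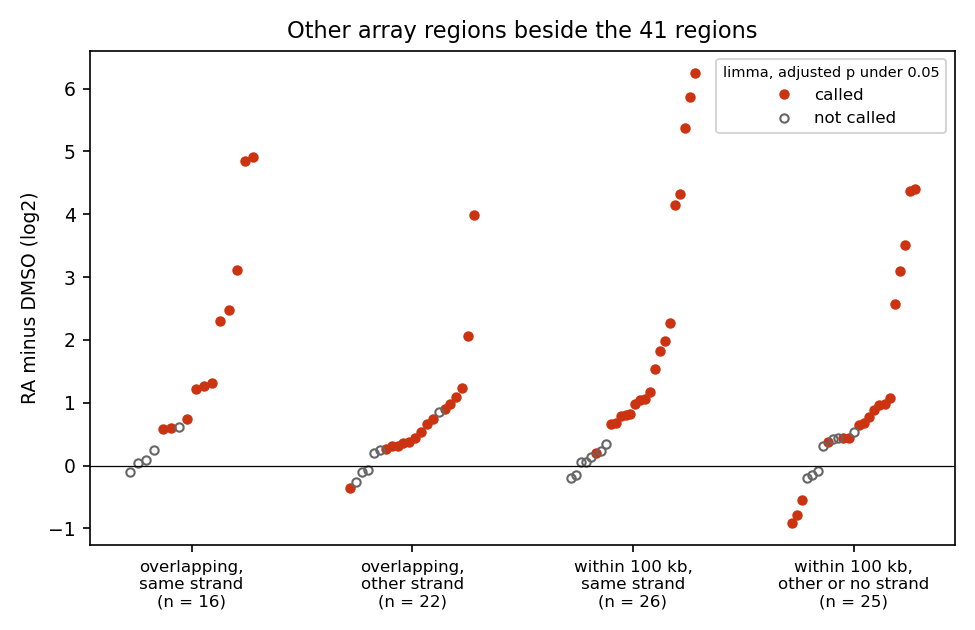
RA minus DMSO difference (log2, 75th-percentile scaling) of the 89 tested regions that overlap one of the 41 regions or lie within 100 kb of it, by strand relative to that region. Filled points have a limma adjusted p under 0.05. Most points lie above 0 at this scaling, and the largest difference, 6.25, is on the same strand without overlap. With no scaling 31 of the 89 were called lower, against 45.5% of all tested regions, and 23 higher, against 13.9%.

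The same rule was applied to the array's other targets for scale. Among 20809 coding RefSeq accessions 294 passed, or 1.41%, with a median bound of at least 5.31-fold. Among 1078 noncoding RefSeq accessions 25 passed, or 2.32%, with a median of at least 4.45-fold. The 41 regions were 0.889% of theirs, with a median of at least 3.65-fold. Regions had 3.51 probes each and coding accessions 1.28, and a target with more probes has more chances of a flag, in DMSO and in RA. Counted by probe, 1.27% of region probes and 1.47% of coding probes passed. Of regions with 1 probe 35.9% had no flag in DMSO, and of those with 6 to 10 probes 1.75% had none. Members were 4 of 690 regions with 1 probe, 7 of 535 with 2 and 24 of 1810 with 3. They were 4 of 1174 with 4 to 5 probes and 2 of 401 with 6 to 10. How the number of probes bears on the number of members was not tested.

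**Figure D4:**
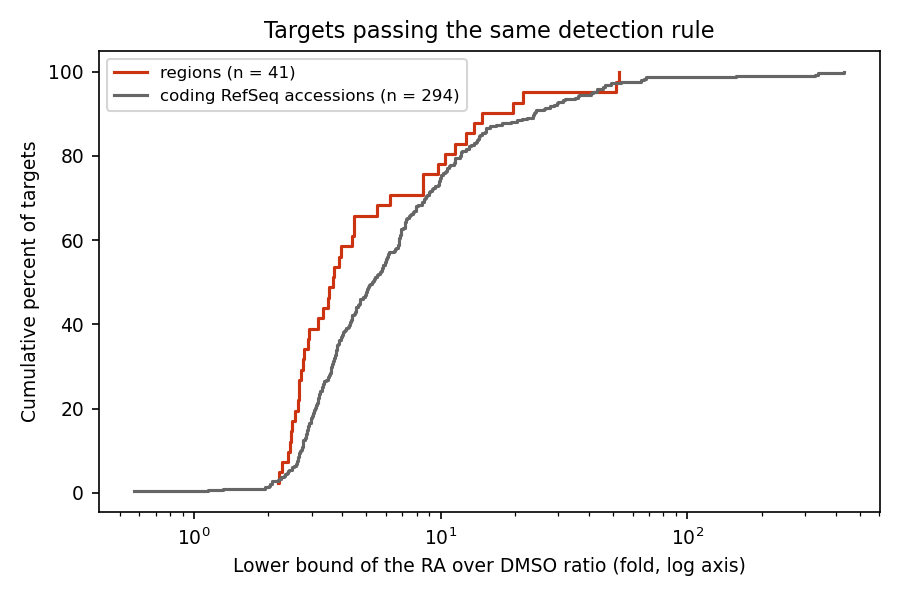
Cumulative percent of targets against the lower bound of the RA over DMSO ratio (log axis), for the 41 regions and the 294 coding RefSeq accessions that passed the same rule. The region curve lies left of the coding curve over most of its length, with medians of 3.65 and 5.31.

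Genes known to respond to RA gave the scale of the response on the same arrays. Of 30 tested Hox genes, which set position along the body axis, 27 were higher in RA and 1 was lower, against 34.9% of 16035 tested genes higher and 40.7% lower. Hoxc5, Hoxc8, Hoxc9, Hoxd3, Hoxd4 and Hoxd9 passed the rule of the 41 regions. Hoxc9 had intensities of 4.23, 2.67 and 2.27 in DMSO and 1519, 1722 and 1705 in RA, at least 327-fold. Of 21 listed RA targets 20 were higher and 0 lower, and Cyp26c1, an enzyme that degrades RA, passed the rule, with intensities of 2.50, 3.33 and 2.27 in DMSO and 18.2, 14.4 and 13.1 in RA. These lists were counted with their known response in view.

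Of 44 named noncoding RNAs listed, 25 were on the array by name and 18 were tested. Of these, 10 were higher in RA and 5 lower, against 34.9% and 40.7% of all tested genes. With spike-in scaling 5 were higher and 8 lower, against 6577 higher and 17639 lower among all 37076 tested probes. Pantr1, a long noncoding RNA beside the neural transcription factor gene Pou3f3, passed the rule. It had 2.13, 2.60 and 4.61 in DMSO and 161, 177 and 152 in RA, at least 32.4-fold. Platr10, one of a series of transcripts associated with pluripotency, moved the other way, from 1243, 1182 and 1235 in DMSO to 2.50, 1.90 and 3.74 in RA, and it was lower in RA by the limma test (adjusted p = 8.16e-06).

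Markers of other cell types moved with RA too, where 34.9% of all tested genes were higher and 40.7% lower. Of 10 pluripotency markers 9 were lower and 1, Nanog, was higher, and their summed scaled signal was 568.5 to 585.4 in DMSO and 89.9 to 98.8 in RA, in multiples of the array's 75th percentile. All 10 primitive and parietal endoderm markers were higher, with summed signals of 27.5 to 29.7 in DMSO and 64.7 to 78.8 in RA. Of 6 neural markers 5 were higher and 1 lower, with 4.04 to 4.16 in DMSO and 30.05 to 32.1 in RA. Of 6 tested fibroblast markers 5 were higher and 1 lower, with 1.98 to 2.13 over all 9 in DMSO and 38.0 to 40.7 in RA, and Lum, Postn and Fap had the flag on no array. Of 5 tested blood and endothelial markers 1 was higher and 1 lower, with 9.64 to 10.5 in DMSO and 9.85 to 15.5 in RA, and Cdh5 and Hbb-bt had the flag on no array. In these bulk samples more cells of a type and more RNA per cell cannot be told apart, and the part of other cell types in the signal of the 41 regions was not tested.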

How the data were processed

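Per the file headers, each spot's deposited intensity is linear and background-subtracted, made with Agilent Feature Extraction 10.7.3.1 (10.7 in the submitters' processing notes). The authors' deposited series table holds log2 values, used as an alternative; no source used here gives its scaling step. The files place regions on mm9, per the file headers. For the main values, log2 of the intensity minus the 75th percentile of the array's non-control spots was taken, spots of a probe were averaged, and outlier spots dropped. Probes well above background on at least 3 of 6 arrays were tested with limma 3.58.1 in R 4.3.3 (lmFit, eBayes), with Benjamini-Hochberg adjustment over all of them and a threshold of 0.05. The script was tested on simulated data. Gene symbols came from RefSeq accessions matched through a GRCm38.p6 table, used for names alone (27235 probes, 20660 genes).

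The regions, lists and alternatives were chosen with earlier results of these data known. Named were the 12 regions brightest in RA, the 10 with the largest bounds, those whose 3 or more probes were all detected, the 3 dimmest and the 3 nearest the rule on each side. Genes beside the regions and the vitamin C samples could not be used as planned. Sample numbers did not pair the groups: correlations of their deviations were -0.03, 0.02 and -0.04. No spot was saturated, and the number of arrays limits the precision.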

Additional observations from a re-analysis of the deposited data

How the results depend on the processing

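The count of 41 regions became 13 with the positive-and-significant flag, 14 if every probe had to be detected on all RA arrays, 16 if 2 or more had to be, and 75 if 2 of 3 RA arrays sufficed. Leaving out each sample in turn gave 47 to 57 regions, and 94 to 125 for the mirrored rule. Each of these counts can only rise when a sample is left out, since the rule then asks less.

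The median bound of 1.87 log2 moved to 1.53 with median scaling, 1.43 with quantile normalization, 1.38 with spike-in scaling, 1.49 with the authors' series values, 1.00 with normexp and an offset of 50, and 1.03 with no scaling between arrays. It was 1.80 to 1.96 with a sample left out. Calls on the 41 regions in these fits follow from how they were chosen and are not counted.

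Over all probes, 13375 were higher and 13171 lower. Spike-in scaling gave 6577 higher, no filter 22637 higher, and no scaling 4544 higher and 23347 lower. With a sample left out 11733 to 12678 were higher and 10714 to 13791 lower. Of tested regions 1891 were higher and 676 lower. Spike-in scaling gave 885 and 1023, no scaling 503 and 1644, and normexp 450 lower. With a sample left out 1699 to 1870 were higher and 524 to 747 lower. The share of region calls that were higher was 73.7%, against 57.3% with median scaling, 63.4% with quantile normalization, 64.0% with the authors' values, 46.4% with spike-in scaling, 85.8% with normexp and 23.4% with no scaling. Spike-in scaling put the median of all probes at -0.45 log2 and no scaling at -0.81, so changes are relative to the array's percentile. The causes were not tested.

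The replicate block gave 12732 probes higher and 12342 lower, with 1810 and 642 of the tested regions. The slide as a block could not be fitted, since each slide held 1 group, and the alternatives planned for genes beside the regions and for the vitamin C arrays were not run, as those results could not be computed. The normexp fit used the median signal. The alternatives without scaling and without overlapping members were added after seeing the data. The lowest flagged signal entered the DMSO side of the bounds in bright and dim regions alike, unless the probe's own signal was higher. The own signal was higher on some DMSO array in 8 regions, and on all 3 at chr19:33049479-33054553. In 25 of the 41 regions the leading probe was also under 2 times the array's lowest flagged signal on at least 1 RA array.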
